A study of Mus musculus with 8 samples.

Results

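The autophagy genes described here were 36 genes chosen by symbol, among the 27514 genes that the count matrices of all 8 libraries share. They span 9 roles: the ULK1 initiation complex, the class III PI3K complex and its partners, the ATG9, ATG2 and WIPI proteins, the conjugation enzymes, the ATG4 proteases, the ATG8 proteins, the cargo receptors, the mitophagy receptors and 1 transcription factor. The libraries were droplet single-cell RNA-seq libraries of thymic epithelial cells (TEC), the stroma on which thymocytes mature, from wild-type C57 B6 (CD45.2) mice with no transgene and no treatment. They fell into 6 groups: total TEC of E13.5 embryos (E marks the embryonic day), cortical TEC (cTEC) of E15.5 and E17.5 embryos and of newborn (NB, 0 to 2 days) and adult (4 to 6 weeks old) mice, and adult medullary TEC (mTEC). The adult groups held 2 libraries each and the others 1. All cells were sorted as viable EpCAM+ CD45- cells. The cTEC gate was Ly51+ UEA-1- and the mTEC gate Ly51- UEA-1+, UEA-1 being a lectin, while the E13.5 library was not split. Capture was in 2 data sets. The E17.5 library and replicate 2 of the adult groups belong to data set 2 and all other libraries to data set 1. NB and adult thymi were dissociated with Liberase and enriched on Percoll, whereas embryonic thymi were dissociated with trypsin, so that across birth age and dissociation cannot be told apart. How many mice entered a library is not stated in the sources used here, and p-values therefore measure the spread between libraries, which may be technical.

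Macroautophagy encloses cytoplasm in a double membrane, the autophagosome, and delivers it to lysosomes. The ULK1 kinase complex starts the process, a class III PI3 kinase marks the membrane with PI3P, and conjugation enzymes attach the ubiquitin-like ATG8 proteins (the LC3 and GABARAP families) to its lipids, where cargo receptors such as p62 (Sqstm1) bind them. TEC are known for high constitutive autophagy, a route by which cytoplasmic proteins reach MHC class II molecules for the selection of CD4 T cells. Messenger RNA levels, which were measured here, do not give autophagic flux.

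The level of a gene is given as CPM, its unique molecular identifiers (UMIs) per 1000000 UMIs of the library, summed over the epithelial-like cells. A UMI marks 1 captured RNA molecule at its 3′ end, so CPM values can be set side by side between genes without division by length. The libraries held 492 to 8350 such cells and 2151147 to 89998087 UMIs, adult cTEC replicate 1 being the shallowest with a median of 3952 UMIs per cell against up to 11386 elsewhere. The 9 cTEC markers summed to 13260 to 28800 CPM in the cTEC libraries and to 1608 and 1895 CPM in adult mTEC. In E13.5 TEC they summed to 2539 CPM, near adult mTEC. Between 2 libraries at most 61 cell barcodes were shared. In the adult cTEC libraries 325 of 492 cells and 426 of 535 cells held a UMI of Psmb11 or Prss16, genes of cortical TEC. In the adult mTEC libraries, whose cells should lack both, 397 of 1585 and 1659 of 5615 cells did too, at medians of 9499 and 11386 UMIs per cell against 3952 and 7062 in adult cTEC, so that 1 such UMI does not make a cell cortical. At least 5 such UMIs were held by 0.694% and 0.98% of adult mTEC cells and by 168 and 336 adult cTEC cells. In E13.5 TEC 1495 of 1750 cells (85.4%) held at least 1 such UMI and 860 (49.1%) at least 5. By these 2 genes the E13.5 library was thus unlike adult mTEC, although its 9 markers together were low. The 8 mTEC I markers summed to 6530 CPM in adult cTEC replicate 1 and to 1492 CPM in replicate 2. A library's level can therefore differ through its mixture of cells or through RNA per cell, and these cannot be told apart from the sums. The 12 thymocyte markers summed to 6.19 to 18.9 CPM in the libraries up to NB and to 36.03 to 107 CPM in the adult ones. The 18 dissociation stress genes (Fos, Jun, Hspa1a and others) summed to 1316 to 1904 CPM in the 3 embryonic libraries and to 12770 to 23370 CPM in NB and adult cTEC. Their part in the results below was not tested, unless a value is given.

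All 36 genes were detected in every library, with at least 6 UMIs each. Their summed level was lowest in E13.5 TEC, at 2006 CPM, and highest in NB cTEC, at 3937 CPM. It was 3185 CPM in E15.5 cTEC, 3548 CPM in E17.5 cTEC, 3059 and 3189 CPM in adult cTEC and 3260 and 2715 CPM in adult mTEC. The sum was carried by few genes: the 6 with a mean of at least 100 CPM (Bnip3l, Gabarap, Map1lc3b, Map1lc3a, Gabarapl2 and Sqstm1) held 62.5% to 81.8% of it, and 18 genes had a mean under 20 CPM. The level of 11 genes varied by less than 2-fold over the 8 libraries and that of 7 by more than 4-fold, namely Sqstm1, Optn, Atg4a, Map1lc3a, Tfeb, Gabarapl1 and Bnip3. Of the members, 9 were at least 2-fold apart between the adult cTEC libraries and 0 between the adult mTEC libraries. The adult cTEC libraries also held the fewest UMIs. The share of all genes was not counted, so that this does not set these members or the cortex apart.

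**Figure D1:**
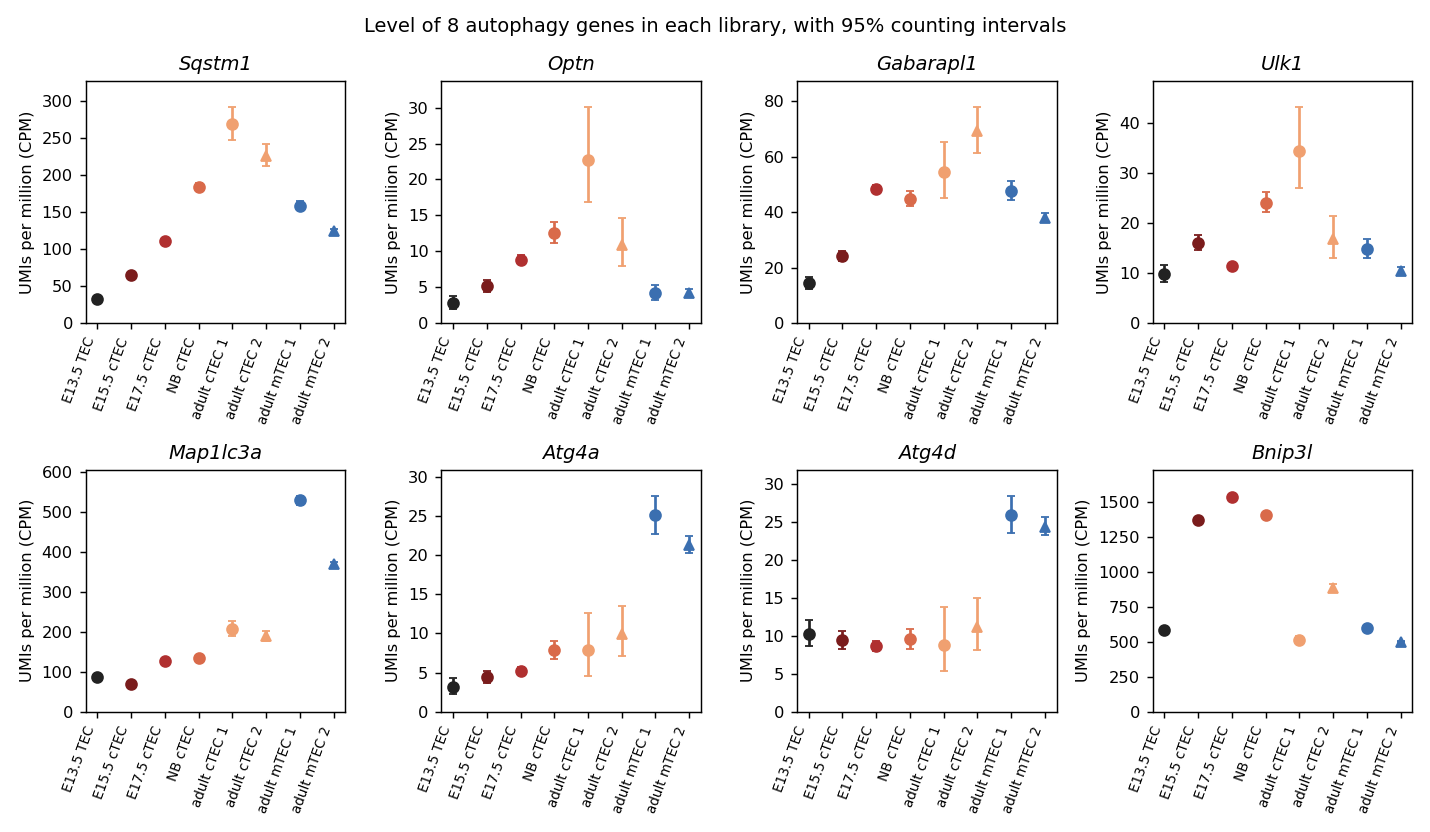
Each panel plots the level of 1 gene in CPM in the 8 libraries (triangles: replicate 2 of a group, circles: all others), with 95% counting intervals. Sqstm1 climbs from 32.3 CPM in E13.5 TEC to 269 CPM in adult cTEC replicate 1, whereas Map1lc3a, Atg4a and Atg4d stand highest in the adult mTEC libraries.

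To ask how the genes changed from fetal to adult life, a slope on the rank of the 5 stages was fitted to the E13.5 library and the 5 cTEC libraries (the stage series), adjusting for the data set. Of the 36 genes, 4 rose with stage and 0 fell at an adjusted p under 0.05 (edgeR quasi-likelihood test, Benjamini-Hochberg over 14285 genes): Sqstm1, Optn, Gabarapl1 and Ulk1. Among all genes tested 8.22% were called, 5.15% as higher and 3.07% as lower. The median slope of the 36 genes was 0.07 log2 units per stage, against 0.000264 for all genes, and 23 of the 36 slopes were above 0, against 50% of all slopes. At an unadjusted p under 0.05 there were 13 members (36.1%), against 27.9% of all genes. The 4 that rose take part at separate steps: Ulk1 is the initiating kinase, Gabarapl1 an ATG8 protein, and Sqstm1 and Optn are receptors that tie ubiquitinated cargo to the ATG8 proteins.

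The RefSeq promoter windows of these 4 genes, which were the ones that rose, run from 250 bases before to 50 bases after the start and are shown 5′ to 3′ on the gene's strand in GRCm38.p6. Capitals mark the only match to the 4 motifs searched.
Sqstm1, chr11:50210771-50211070, minus strand: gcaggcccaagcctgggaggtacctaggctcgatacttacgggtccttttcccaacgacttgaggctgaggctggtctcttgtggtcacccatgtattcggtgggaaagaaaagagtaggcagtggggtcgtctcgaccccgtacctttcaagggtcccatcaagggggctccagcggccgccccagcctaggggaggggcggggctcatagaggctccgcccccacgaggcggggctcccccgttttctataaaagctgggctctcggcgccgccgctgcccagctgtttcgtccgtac
Optn, chr2:5064068-5064367, minus strand: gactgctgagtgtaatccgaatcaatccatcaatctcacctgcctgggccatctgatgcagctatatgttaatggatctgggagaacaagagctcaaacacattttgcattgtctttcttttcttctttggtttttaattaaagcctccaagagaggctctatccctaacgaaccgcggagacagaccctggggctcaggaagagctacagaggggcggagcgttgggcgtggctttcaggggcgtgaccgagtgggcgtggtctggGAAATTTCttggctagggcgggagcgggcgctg
Gabarapl1, chr6:129532942-129533241, plus strand: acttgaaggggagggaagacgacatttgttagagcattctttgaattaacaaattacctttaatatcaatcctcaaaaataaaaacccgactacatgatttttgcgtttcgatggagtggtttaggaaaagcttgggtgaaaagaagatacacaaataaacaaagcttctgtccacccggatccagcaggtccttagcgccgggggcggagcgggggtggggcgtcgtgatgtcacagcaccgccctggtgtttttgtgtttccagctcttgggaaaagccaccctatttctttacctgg
Ulk1, chr5:110810032-110810331, minus strand: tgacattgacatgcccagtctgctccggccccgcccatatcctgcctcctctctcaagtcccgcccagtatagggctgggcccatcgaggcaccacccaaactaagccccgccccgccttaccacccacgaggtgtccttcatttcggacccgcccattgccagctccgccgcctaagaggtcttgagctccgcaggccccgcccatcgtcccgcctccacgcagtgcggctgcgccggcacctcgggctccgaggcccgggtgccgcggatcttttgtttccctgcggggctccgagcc

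The motifs, read on both strands, were CACGTG (the palindrome bound by TFEB and other E-box factors), TGACNNNGC (the core of the antioxidant response element), TGANTCA (AP-1) and GAANNTTC (paired heat shock half-sites), where TGACNNNGC and TGANTCA can overlap. They were chosen with the results known. Of the 36 genes 29 had a window in the table, some with more than 1 start, which made 34 windows. CACGTG stood in 5 of the 34 windows (14.7%), from 5 genes (Atg14, Atg3, Atg5, Atg7 and Bnip3), and in 7.15% of all 32851 windows. TGACNNNGC was in 3 (8.82%; Atg13, Map1lc3b and Ulk2) against 12.4% of all windows, TGANTCA in 0 against 7.81% and GAANNTTC in 1 (2.94%; Optn) against 7.86%. The 4 windows shown differ in base composition, with a GC content of 63.3% for Sqstm1, 52.7% for Optn, 46.3% for Gabarapl1 and 68.0% for Ulk1.

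Among the cargo receptors, Sqstm1 (ENSMUSG00000015837, mm10 chromosome 11, 50199366 to 50210827) had the steepest slope of all members. Its level was 32.3 CPM in E13.5 TEC, 65.2 CPM in E15.5, 111 CPM in E17.5 and 184 CPM in NB cTEC, and 269 and 226 CPM in adult cTEC. Each library was thus higher than every library of an earlier stage. The slope was 0.71 log2 units per stage (SE 0.10, adjusted p = 0.0133, edgeR). Among steps between single libraries dissociated alike, Sqstm1 rose 2.02-fold from E13.5 to E15.5 (95% counting interval 1.82 to 2.25), where the dissociation stress sum went from 1904 to 1316 CPM. This step also went from total TEC to the cTEC gate, so that age and gate cannot be told apart in it. From NB to adult cTEC replicate 1, the other step between libraries dissociated alike, the ratio was 1.46 (1.34 to 1.60), with the stress sum at 12770 and 23370 CPM. In adult mTEC Sqstm1 stood at 158 and 124 CPM, below both adult cTEC libraries.

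Optn, which encodes optineurin (ENSMUSG00000026672, chromosome 2, 5020642 to 5064051), was a low gene with the same order of stages. It was at 2.75, 5.10, 8.78 and 12.6 CPM in the E13.5, E15.5, E17.5 and NB libraries and at 22.8 and 10.9 CPM in adult cTEC. Adult replicate 2 fell below NB, and the adult values rest on 49 and 44 UMIs. The slope was 0.63 log2 units per stage (SE 0.13, adjusted p = 0.0389). Nbr1, the remaining cargo receptor, stayed between 14.0 CPM (NB cTEC) and 21.8 CPM (adult mTEC replicate 1). Its levels were 16.7, 18.5, 15.6 and 14.0 CPM up to NB, 17.7 and 18.6 CPM in adult cTEC and 21.8 and 18.8 CPM in adult mTEC. Its slope was -0.0042 (SE 0.08, adjusted p = 0.979), so the 3 cargo receptors did not share 1 pattern with stage.

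The ATG8 proteins, which coat the autophagosome, were together lowest in E13.5 TEC, at 652 CPM. Their sum was 1052 CPM in E15.5, 1302 CPM in E17.5 and 1579 CPM in NB cTEC, 1518 and 1467 CPM in adult cTEC, and 1763 and 1421 CPM in adult mTEC. Gabarapl1 (ENSMUSG00000030161, chromosome 6, 129533160 to 129542346) was the only 1 of the 5 called. It was at 14.4 CPM in E13.5 TEC, 24.0, 48.5 and 44.8 CPM in E15.5, E17.5 and NB cTEC, and 54.4 and 69.3 CPM in adult cTEC. Both adult libraries were above all others of the stage series (slope 0.43, SE 0.09, adjusted p = 0.0391). It stood at 47.7 and 38.0 CPM in adult mTEC.

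The other ATG8 genes were not called with stage. Map1lc3b, which encodes LC3B, was at 182, 311, 331 and 651 CPM up to NB and at 594 and 426 CPM in adult cTEC (slope 0.40, SE 0.12, adjusted p = 0.0826). Map1lc3a, which encodes LC3A, was at 87.5, 69.6, 127 and 136 CPM and then at 207 and 189 CPM (slope 0.33, SE 0.09, adjusted p = 0.0682). Both were thus higher in the adult cTEC libraries than in any fetal library. Gabarap was at 242 CPM in E13.5 TEC and at 507, 671 and 538 CPM in E15.5, E17.5 and NB cTEC. In adult cTEC it was at 444 and 602 CPM, on either side of NB (slope 0.12, SE 0.13, adjusted p = 0.614). Gabarapl2 was at 126, 141, 125 and 209 CPM up to NB and at 219 and 181 CPM in adult cTEC (slope 0.22, SE 0.08, adjusted p = 0.12). In adult mTEC Map1lc3b was at 439 and 317 CPM, Gabarap at 521 and 504 CPM and Gabarapl2 at 226 and 192 CPM, each range overlapping that of adult cTEC.

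In the ULK1 complex, Ulk1 (ENSMUSG00000029512, chromosome 5, 110784488 to 110810097) was at 9.86, 16.1, 11.3 and 24.1 CPM in the E13.5, E15.5, E17.5 and NB libraries. Adult cTEC held 34.4 and 16.8 CPM and adult mTEC 14.9 and 10.4 CPM. The slope was 0.39 (SE 0.08, adjusted p = 0.0425), although the libraries of data set 2 (E17.5 and adult replicate 2) lay below their neighbours in stage from data set 1. The other 4 members were not called: the slope was 0.25 for the related kinase Ulk2, 0.20 for the scaffold Rb1cc1 (FIP200), 0.07 for Atg13 and 0.04 for Atg101.

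No member of the remaining roles was called with stage. In the class III PI3K group (Pik3c3, its partner Becn1, and Atg14, Uvrag and Ambra1) the slopes lay between -0.02 and 0.12, and the summed level between 72.5 and 103 CPM in all 8 libraries. Among Atg9a, Atg2a, Atg2b, Wipi1 and Wipi2, which supply lipid to the growing membrane or read PI3P, they lay between -0.11 and 0.29. Among the conjugation enzymes (Atg3, Atg5, Atg7, Atg10, Atg12 and Atg16l1), Atg3, the E2-like enzyme that loads ATG8 proteins onto lipid, had the largest slope (0.31, SE 0.08, adjusted p = 0.0649), and the others lay between -0.03 and 0.12. The slopes of the ATG4 proteases, which trim ATG8 proteins, were 0.37 for Atg4a, -0.16 for Atg4b, -0.07 for Atg4c and -0.0037 for Atg4d. Tfeb, the transcription factor of lysosomal and autophagy genes, was at 1.49 to 7.90 CPM and had 6 UMIs in its lowest library.

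The mitophagy receptors, which sit on mitochondria and bind ATG8 proteins, had other patterns. Bnip3l (NIX) had the highest mean of all members over the 8 libraries, although Map1lc3b was above it in adult cTEC replicate 1 (594 against 513 CPM) and Gabarap in adult mTEC replicate 2 (504 against 501 CPM). Bnip3l was at 584 CPM in E13.5 TEC, 1368 CPM in E15.5, 1537 CPM in E17.5 and 1409 CPM in NB cTEC. It stood at 513 and 884 CPM in adult cTEC and at 597 and 501 CPM in adult mTEC, so that the 3 fetal and newborn cTEC libraries were above all others. A straight slope did not describe this (slope -0.11, SE 0.21, adjusted p = 0.786). Bnip3 was highest in E13.5 TEC, at 171 CPM, and was at 99.5, 96.1 and 80.7 CPM in E15.5, E17.5 and NB cTEC. It was at 53.5 and 35.6 CPM in adult cTEC and at 71.7 and 37.9 CPM in adult mTEC, and each library of the stage series was below those of earlier stages (slope -0.43, SE 0.10, adjusted p = 0.0529). Bnip3 thus missed the threshold here. It was called as lower with RLE scaling (adjusted p = 0.0471), in DESeq2 (0.00133) and without the data set term (0.0362). Over resting cells (0.0481) and over cells with a Psmb11 or Prss16 UMI (0.0479) it was called too. In all other alternatives Bnip3 was not called. These were fits without the filter on low counts, without a haemoglobin-rich cluster or without any single library. They were also fits over all cells within the limits, all deposited cells, data set 1 only or fetal against postnatal classes. The slope of Bnip3 lay between -0.48 and -0.36 in all fits on the rank of stage. Bnip3 is induced in hypoxia. The 10 hypoxia and glycolysis genes summed to 1878 CPM in E13.5 TEC and 1927 CPM in E17.5 cTEC and to 528 to 784 CPM in the other cTEC libraries. Of the 10, 2 fell with stage, Ankrd37 (slope -0.89) and Ldha (slope -0.61), and 0 rose, where 3.07% of all genes fell. The part of hypoxia in the level of Bnip3 was not tested.

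The calls with stage depended on single libraries. Without adult cTEC replicate 1 0 of the 4 passed (adjusted p = 0.11 to 0.236), as 24 of all genes were then called, although their slopes stayed between 0.38 and 0.73. Without adult cTEC replicate 2 Sqstm1 and Optn were called, and without the E13.5 library Sqstm1 alone. With the E15.5, E17.5 or NB library left out, which was chosen after seeing the data, the calls were 0 members (296 of all genes, 9 members at an unadjusted p under 0.05), Sqstm1 and Optn, and Sqstm1. Without the E15.5 library the slopes of the 4 were 0.71 for Sqstm1, 0.62 for Optn, 0.43 for Gabarapl1 and 0.40 for Ulk1, and over these 3 fits they lay between 0.39 and 0.76. DESeq2 called 11 members, among them all 4, and 2938 of all genes, against 4 members and 1174 genes in the main fit. Cells with a high proliferation score made up 1365 of 1750 cells in E13.5 TEC and 9 of 492 cells in adult cTEC replicate 1. Over resting cells only, Sqstm1 (slope 0.65, adjusted p = 0.0159) and Optn (0.64, 0.0473) were called, while Gabarapl1 (0.30, 0.0624) and Ulk1 (0.43, 0.0798) were not; Atg3 and Bnip3 (-0.48, 0.0481) were called there as well. Over cells of the cTEC libraries that held a Psmb11 or Prss16 UMI, Ulk1 missed the threshold (0.38, 0.0502) and the other 3 were called, with Bnip3 besides. Fetal against postnatal libraries as 2 classes gave 0 member calls, with 13 genes called in all and 10 members at an unadjusted p under 0.05. Other cell types moved with stage too: 5 of 11 thymocyte markers tested, 4 of 9 myeloid and 4 of 6 endothelial markers were called higher, and 15 of 18 dissociation stress genes. So were 3 of 7 mTEC I markers, whose sum was 269 to 949 CPM up to NB and 6530 and 1492 CPM in adult cTEC, and 1 of 5 mesenchymal markers, whose sum was 4.48 to 30.7 CPM up to NB and 511 and 318 CPM in adult cTEC. Called higher were also 2 of 7 mTEC II markers, whose sum was 3.76 to 11.5 CPM up to NB and 188 and 107 CPM in adult cTEC. Of 4 erythroid markers tested 3 were lower. In adult mTEC, the level of Ulk1 in mTEC I-like cells was 3.18 and 1.82 times that in all other cells of the library, and that of Sqstm1 2.05 and 1.25 times. For Gabarapl1 the ratios were 1.32 and 1.48, and for Optn 0.913 and 0.931, on 14 and 36 UMIs. The part of these cell types and stress genes in the member calls was not tested.

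**Figure D2:**
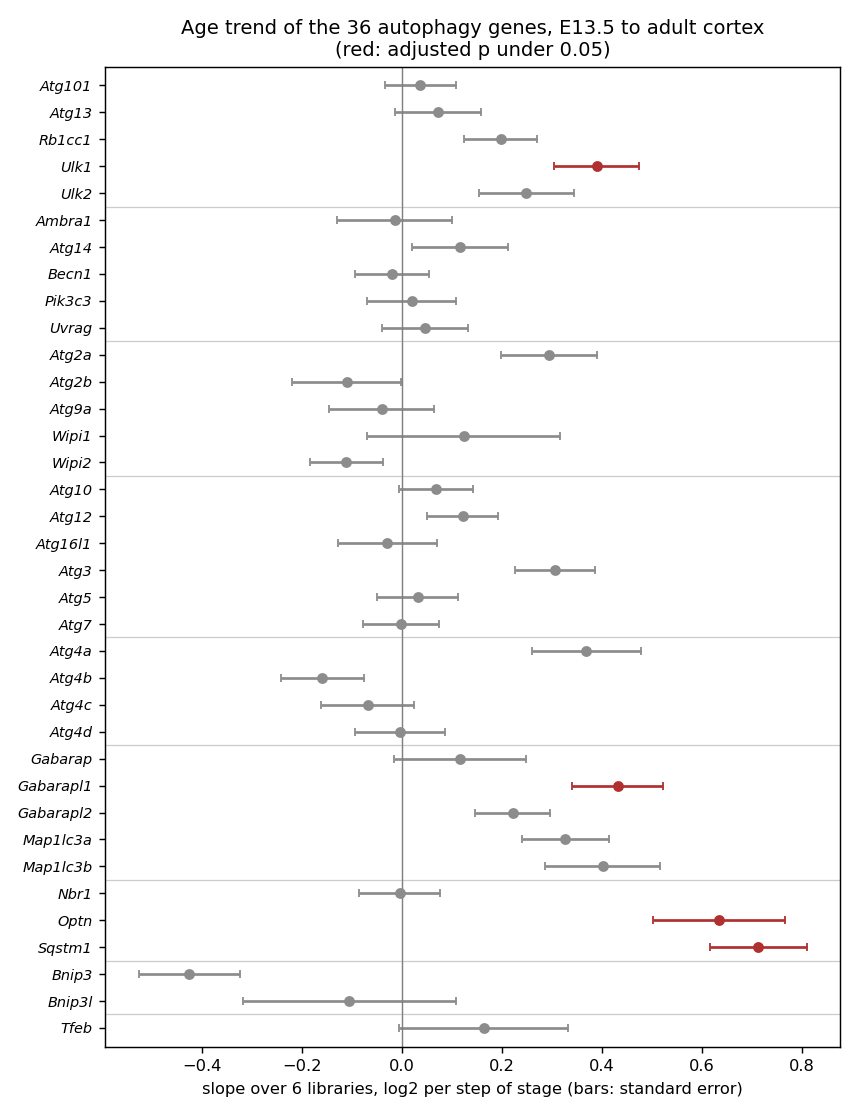
Points give the slope of each of the 36 genes in log2 units per step of stage over the E13.5 TEC and 5 cTEC libraries, with the standard error, grouped by role. The 4 genes in red (Sqstm1 0.71, Optn 0.63, Gabarapl1 0.43, Ulk1 0.39) passed the threshold, and Bnip3 (-0.43) had the most negative slope.

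Steps between single libraries of 1 data set have no replicate and are given without a test. The step from E13.5 to E15.5 also goes from total TEC to the cTEC gate. A gene was counted when its mean over both libraries was at least 10 CPM and the ratio at least 2 or at most 0.5. From E13.5 TEC to E15.5 cTEC, 4 of 26 members were at least 2-fold higher (15.4%, against 6.74% of all genes) and 0 were lower (6.17% of all). They were Wipi1, a PI3P-binding protein (2.53-fold, 26.0 to 65.7 CPM), Bnip3l (2.35-fold), Gabarap (2.09-fold) and Sqstm1. From E15.5 to NB cTEC, 2 of 26 were higher (7.69%, against 5.66%) and 0 lower (3.63%): Sqstm1 (2.82-fold, 2.66 to 2.98) and Map1lc3b (2.10-fold, 2.04 to 2.15). From NB to adult cTEC replicate 1, 0 of 29 were higher (11.4% of all) and 2 lower (6.90%, against 6.58%): Bnip3l, whose ratio was 0.364 (0.343 to 0.387), and Wipi1 (0.481, 0.387 to 0.592). From E17.5 to adult cTEC replicate 2, 2 of 26 were higher (7.69%, against 8.73%) and 1 lower (3.85%, against 5.94%). The higher ones were Atg3 (2.13-fold, 41.1 to 87.4 CPM) and Sqstm1 (2.03-fold), and the lower one was Bnip3, with a ratio of 0.371 (0.312 to 0.437). Sqstm1 was thus past the fold in 3 of the 4 steps. At a fold of 1.5, in the same order of steps, 7 (26.9%), 5 (19.2%), 4 (13.8%) and 3 (11.5%) members were higher, against 13.8%, 13.7%, 18.8% and 17.4% of all genes. There were 1 (3.85%), 1 (3.85%), 4 (13.8%) and 2 (7.69%) lower, against 16.3%, 11.6%, 22.1% and 15.1%. Bnip3l in this last step had a ratio of 0.575 (0.556 to 0.595), on the same side as in data set 1. The intervals cover counting error only.

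To ask how the cortical and medullary lineages differ in the adult, the 2 adult cTEC libraries were set against the 2 adult mTEC libraries, adjusting for the data set. Of the 36 members 1 was higher in cTEC and 3 were lower (edgeR, 15626 genes). This share, 11.1%, was below the 31.7% of all genes called (10.9% higher and 20.8% lower), and the median difference was -0.03 log2 units for the members and -0.14 for all genes. Optn was the member higher in cTEC, and the ATG8 gene Map1lc3a and the ATG4 proteases Atg4a and Atg4d were lower.

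Optn was at 22.8 and 10.9 CPM in adult cTEC (16.8 ± 8.41, SD, n = 2) and at 4.15 and 4.17 CPM in adult mTEC (4.16 ± 0.016, SD, n = 2). The groups did not overlap, and cTEC exceeded mTEC 5.49-fold in data set 1 and 2.61-fold in data set 2. The difference was 1.84 log2 units (SE 0.48, adjusted p = 0.00268). Sqstm1, the related receptor, was 1.70-fold and 1.82-fold higher in cTEC in the data sets and was not called (0.74, SE 0.38, adjusted p = 0.135).

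Map1lc3a (ENSMUSG00000027602, chromosome 2, 155276297 to 155278073) was at 207 and 189 CPM in adult cTEC (198 ± 13.1, SD, n = 2) and at 529 and 370 CPM in adult mTEC (450 ± 113, SD, n = 2). All 6 libraries of the stage series were below both mTEC libraries. The difference was -1.23 log2 units (SE 0.39, adjusted p = 0.0143). The related Map1lc3b was on the other side of 0, at 0.36 (SE 0.39, adjusted p = 0.534). Gabarap (-0.06), Gabarapl1 (0.46) and Gabarapl2 (-0.14) were not called, with standard errors of 0.38 to 0.40.

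Of the 4 ATG4 proteases, Atg4a and Atg4d were called. Atg4a (ENSMUSG00000079418, chromosome X, 140956907 to 141164270) was at 3.19 CPM in E13.5 TEC, 4.41 CPM in E15.5, 5.23 CPM in E17.5 and 7.82 CPM in NB cTEC. It was at 7.90 and 9.90 CPM in adult cTEC and at 25.1 and 21.3 CPM in adult mTEC (-1.43 log2 units, SE 0.44, adjusted p = 0.0101). Atg4d (ENSMUSG00000002820, chromosome 9, 21265293 to 21277772) was at 10.3, 9.43, 8.61 and 9.51 CPM up to NB. It was at 8.83 and 11.1 CPM in adult cTEC and at 25.9 and 24.4 CPM in adult mTEC (-1.39 log2 units, SE 0.43, adjusted p = 0.0112). For both genes the mTEC libraries were above all 6 libraries of the stage series, where the adult cTEC values rest on 17 to 45 UMIs. Atg4b, the most abundant of the 4 (20.4 ± 0.57 CPM in cTEC and 34.3 ± 1.44 in mTEC, SD, n = 2), was at -0.82 (SE 0.41, adjusted p = 0.125). Atg4c, at 0.91 (SE 0.49, adjusted p = 0.159), was not called either. The proteases summed to 47.4 and 53.7 CPM in cTEC and to 92.3 and 84.5 CPM in mTEC. Differences between the proteases were not tested.

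Of the 32 members not called, 20 (62.5%) lay on 1 side of 0 in both data sets, against 65.1% of all genes not called. The lowest adjusted p among the 32 were those of Wipi1 (-0.82, adjusted p = 0.0924) and Ulk1 (0.88, 0.0965). Bnip3l was lower in cTEC in data set 1 (ratio 0.859) and higher in data set 2 (1.76), and Bnip3 had ratios of 0.746 and 0.940. In these groups of 2 each library counted, and the main fit itself leaves few residual degrees of freedom. Fits without 1 library have no data set term and few residual degrees of freedom; without adult cTEC replicate 1 0 of the 4 were called (adjusted p = 0.0599 to 0.0726; Tfeb was called instead), and without replicate 1 or replicate 2 of adult mTEC 0 members, with 3 and 4 at an unadjusted p under 0.05. Without adult cTEC replicate 2 Optn, Atg4a and Atg4d were called. DESeq2 called Map1lc3a alone (adjusted p = 0.00171), with 0.0845 to 0.107 for the other 3. Of the 18 dissociation stress genes 9 were higher in cTEC and 0 lower. Of markers of other cell types tested, 5 of 5 erythroid and 3 of 10 myeloid ones were lower, 2 of 10 thymocyte and 2 of 7 endothelial ones higher, and of 6 mesenchymal ones 1 higher and 2 lower. Their part in the member calls was not tested. Over adult cTEC cells that held a Psmb11 or Prss16 UMI the same 4 members were called.

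**Figure D3:**
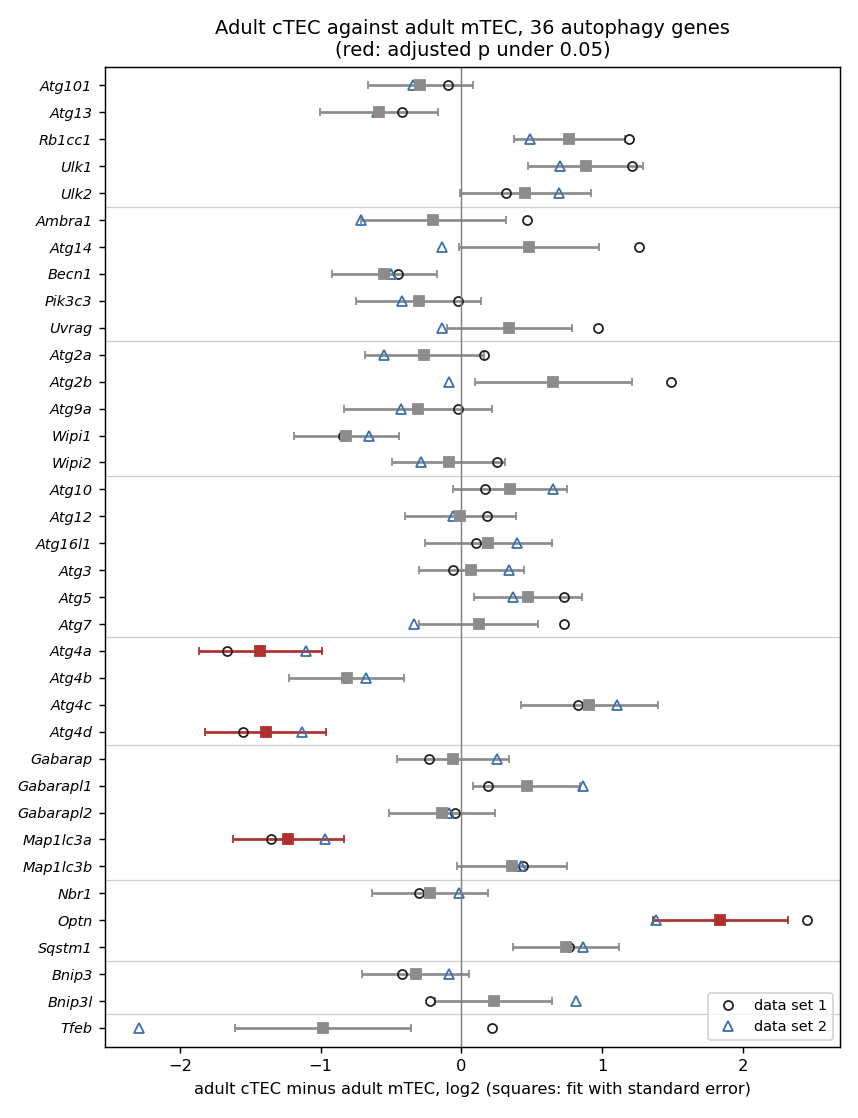
For each of the 36 genes, squares give the fitted difference of adult cTEC minus adult mTEC in log2 units with its standard error, and open symbols the ratio within each data set. For the 4 genes in red (Optn 1.84, Map1lc3a -1.23, Atg4a -1.43, Atg4d -1.39) both data sets lie on the same side of 0.

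Within the adult cTEC libraries, cells with and without a UMI of Psmb11 or Prss16 were set side by side, as a description. Bnip3l was at 621 CPM in cells with such a UMI and 197 CPM in the others in replicate 1 (ratio 3.16, 95% counting interval 2.59 to 3.89). In replicate 2 it was at 996 and 209 CPM (4.77, 3.97 to 5.77). Sqstm1 had ratios of 1.48 (1.20 to 1.83) and 1.77 (1.41 to 2.27). For Gabarapl1 they were 1.57 (0.970 to 2.65), an interval that includes 1, and 1.69, whose interval does not. Other members went the opposite way: Atg13 had ratios of 0.343 (0.141 to 0.834) and 0.438 (0.231 to 0.877), and Map1lc3a, at 0.998 in replicate 1, had 0.578 (0.487 to 0.690) in replicate 2. These members were chosen after their values were seen. The cells without one were shallower, with a median of 2963 against 4636 UMIs in replicate 1 and 5302 against 7684 UMIs in replicate 2, so that the split follows depth in part. Split instead at 5 UMIs of these genes, a level chosen after seeing the data, the ratios were 3.01 and 4.08 for Bnip3l, 1.33 and 1.89 for Sqstm1, and 1.61 and 1.97 for Gabarapl1.

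Clusters of the adult mTEC libraries carried markers of the mTEC subsets; since all genes of the cells entered the clustering, members are given by subset without a test. Of the named clusters, Map1lc3a was highest in mTEC I-like cells, 2 clusters per library led by Ccl21a, Ccl11, Mgp and Igfbp5 among others, at 942 CPM in replicate 1 (500 cells) and 733 CPM in replicate 2 (1023 cells). It was at 246 CPM in the mTEC II-like cluster, led by tissue-restricted genes such as Fabp6 and Prss29 and named in replicate 1 only (332 cells). In the mTEC III-like cluster, led by Spink1 and Spink5, it was at 460 and 491 CPM, and in the mTEC IV-like cluster, led by the tuft cell genes Lrmp and Avil, at 336 and 559 CPM. Map1lc3b had its highest level of the named clusters in mTEC I-like cells too (741 and 534 CPM), against 297 CPM in mTEC II-like cells. Gabarap was at 584 and 483 CPM in mTEC I-like, 588 CPM in mTEC II-like and 947 and 768 CPM in mTEC IV-like cells. Gabarapl2 was at 167 and 145 CPM in mTEC I-like and 363 and 390 CPM in mTEC IV-like cells, and the ATG4 protease Atg4a had the same order, with 14.6 and 12.1 CPM against 62.0 CPM (7 UMIs) and 39.9 CPM. Bnip3l was at 591 CPM in mTEC II-like cells of replicate 1, against 599 CPM in all other cells of that library, and was below the other cells of its library in each further named cluster, at 291 and 368 CPM in mTEC I-like cells (ratios 0.426 and 0.704), 386 and 264 CPM in mTEC III-like cells (0.631 and 0.518) and 363 and 229 CPM in mTEC IV-like cells (0.606 and 0.451). The mTEC IV-like cluster of replicate 1 held 13 cells. Clusters without a name are not described here. In replicate 1 they held 208, 208 and 192 cells, and in replicate 2 the largest of them held 1281, 837, 683 and 617 cells.

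**Figure D4:**
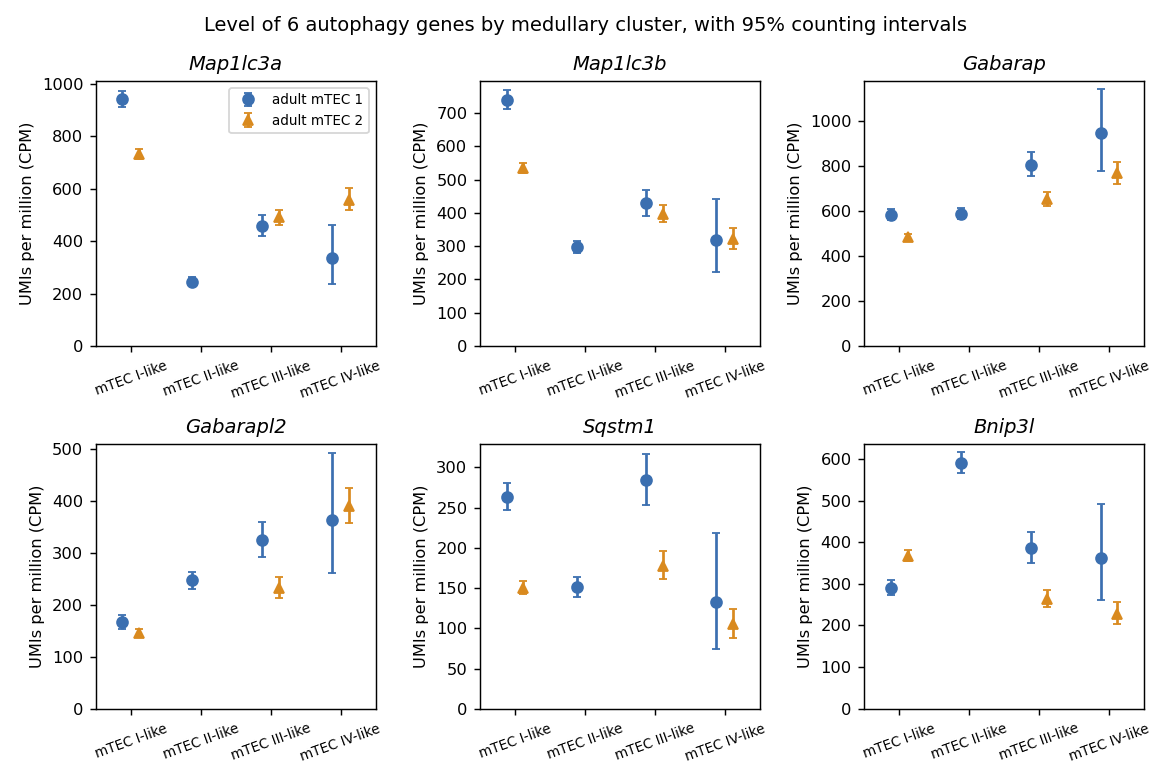
Each panel plots the level of 1 gene in CPM in the named mTEC clusters of the 2 adult mTEC libraries, with 95% counting intervals; mTEC II-like cells were named in replicate 1 only. Of these clusters, Map1lc3a and Map1lc3b stand highest in mTEC I-like cells (942 and 741 CPM in replicate 1), and Gabarapl2 in mTEC IV-like cells (363 and 390 CPM).

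To compare members by proliferation within the same library, cells were split by a score of S and G2M phase genes, which holds no member, and the sums were compared over 7 libraries with the library as a block. Of the 36 members 0 were higher and 7 lower in cycling cells (19.4%; edgeR, 16958 genes). Among all genes 25.7% were called, 9.25% as higher and 16.5% as lower, so that in this fit the share of members lower was near that of all genes. In DESeq2 and with RLE scaling the number of members called grew more than that of all genes, as given below. The likeness to all genes therefore holds for the main fit only. The median difference was -0.26 log2 units for the members and -0.16 for all genes, and 3 of the 36 were above 0, against 36.3% of all. In cycling cells 13 members (36.1%) were lower in every library, against 11.5% of all genes.

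Sqstm1 had the largest difference, at -0.94 log2 units (SE 0.13, adjusted p = 0.000133). Its level in resting and cycling cells was 39.5 and 30.9 CPM in E13.5 TEC, 78.6 and 41.3 CPM in E15.5, 121 and 61.4 CPM in E17.5 and 194 and 121 CPM in NB cTEC. It was 238 and 132 CPM in adult cTEC replicate 2, and 180 and 61.2 CPM and 142 and 60.3 CPM in the adult mTEC libraries. The resting cells were thus higher in all 7 libraries. Of the ATG8 genes, Gabarap (-0.61, adjusted p = 0.00088), Map1lc3b (-0.58, 0.00416) and Map1lc3a (-0.55, 0.0041) were lower, each in 7 of 7 libraries. Gabarapl1 (-0.59, 0.0587) and Gabarapl2 (-0.14, 0.369) were not called. The initiation factors Atg13 (-0.48, 0.019) and Atg14 (-0.48, 0.0329) were lower in 7 of 7 libraries, and Bnip3 (-0.47, 0.0453) in 5 of 7, with differences beyond 1 log2 unit in both adult mTEC libraries (-1.51 and -1.33). Cycling cells held more UMIs, with medians of 7331 to 18576 against 5573 to 10504 in resting cells. Without adult mTEC replicate 1 11 members were called, among them 6 of the 7 (Bnip3 was not). Without replicate 2 10 were called, among them 4 of the 7, as Bnip3, Atg13 and Atg14 missed the threshold. DESeq2 called 13 members among 4475 genes called in all. RLE scaling called 14 among 5541, against 7 among 4360 in the main fit. Of all gene calls 40.3% were higher in DESeq2 and 31.5% with RLE scaling. In each case 6 of the 7 were among the members called, without Bnip3. Bnip3 was also not called over all cells within the limits (adjusted p = 0.0617) and without the E13.5, E17.5 or NB library (0.0851, 0.0592 and 0.0911), with differences of -0.62 to -0.37 in all alternatives. Cell type markers moved with the split too. Lower in cycling cells were 9 of 9 cTEC markers (median -0.74 log2 units), whose sum was 1831 to 30300 CPM in resting and 675 to 19540 CPM in cycling cells and lower in 7 of 7 libraries. So were 2 of 7 mTEC I, 3 of 7 mTEC II, 4 of 8 mTEC III, 7 of 9 mTEC IV, 3 of 8 epithelial, 4 of 10 myeloid, 5 of 5 erythroid and 3 of 5 endothelial markers tested, and 0 of 12 thymocyte and 0 of 7 mesenchymal ones, while of the 18 dissociation stress genes 7 were lower and 2 higher. The part of depth and of these genes was not tested.

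**Figure D5:**
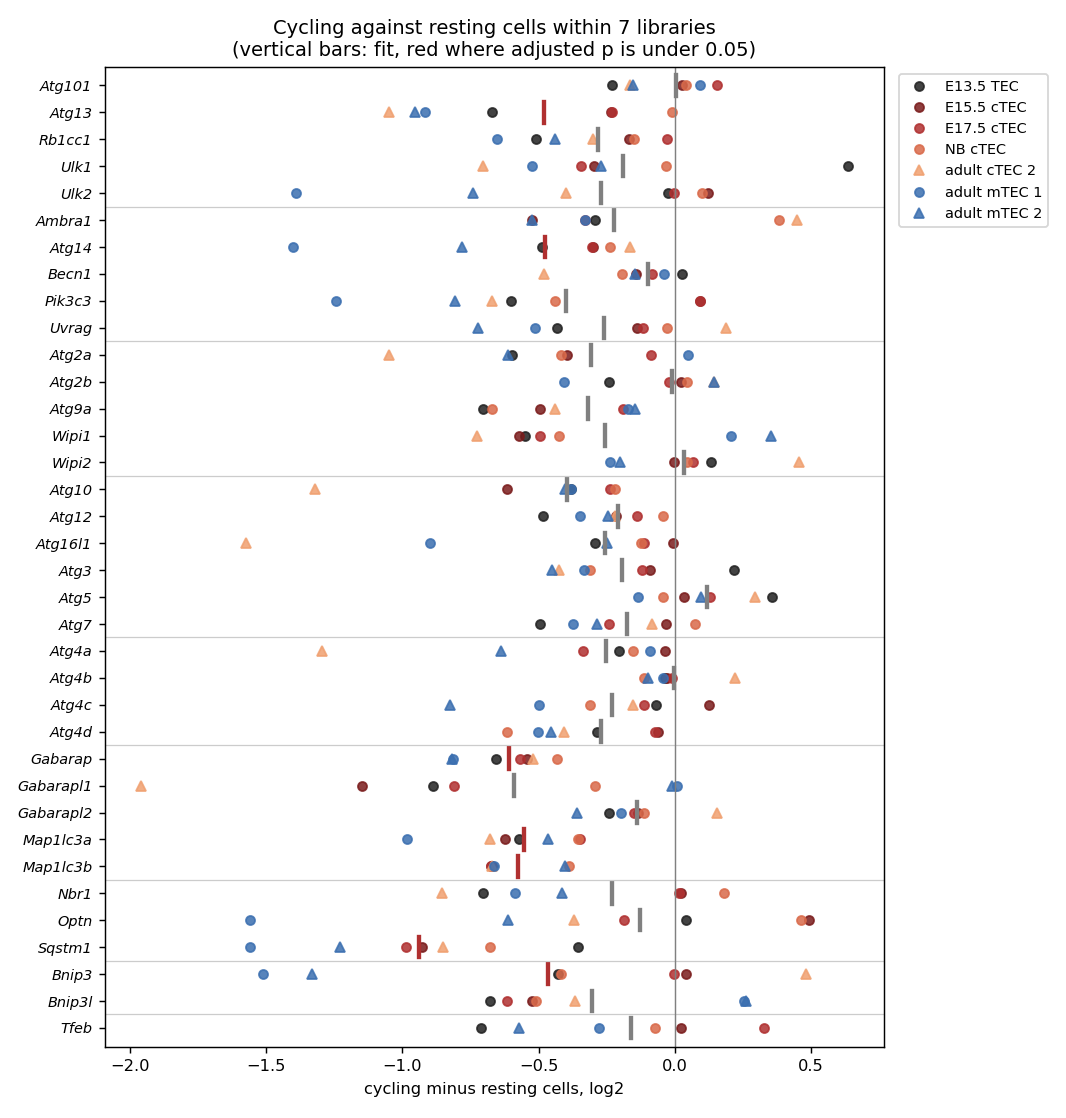
Symbols give the difference of cycling minus resting cells in log2 CPM for each of the 36 genes in 7 libraries, and vertical bars the fit over all of them (Tfeb had no UMI in cycling cells of adult cTEC replicate 2 and has no symbol there). All 7 symbols of Sqstm1, Gabarap, Map1lc3a and Map1lc3b lie below 0, whereas Bnip3l and Wipi1 lie above 0 in the adult mTEC libraries alone.

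Other genes of the pathway came from 4 further lists. With stage, 1 of 18 genes of initiation and membrane growth rose (Trp53inp1, 0.69), 1 of 16 genes of fusion with lysosomes (the lysosomal adaptor Rilp, 1.17), 1 of 16 further receptors (the ER-phagy receptor Ccpg1, 0.39) and 2 of 27 genes of nutrient and stress control (Nfe2l2, which encodes the NRF2 regulator of Sqstm1, 0.45, and Sesn2, 0.37). No gene of these lists fell, where 5.15% of all genes rose and 3.07% fell. Against mTEC, adult cTEC were higher in 4 and lower in 3 of the 18 genes of initiation, among them Atg16l2 (1.54) and Trp53inp2 (-1.13). Of the fusion genes 3 were higher and 0 lower, including Rilp (3.11) and the lysosomal membrane protein Lamp2 (2.19). Of the receptors 4 were higher and 1 lower, led by Calcoco1 (3.03) and Park2 (2.0), the latter encoding Parkin. Of the nutrient and stress genes 9 were higher and 1 lower, led by the transcription factors Mitf (2.78) and Foxo3 (2.25). Of all genes 10.9% were higher and 20.8% lower in cTEC. In cycling cells 5 genes were lower in each of the 4 lists and the receptor list had 1 higher (Rtn3, named after its value was seen), where 16.5% of all genes were lower and 9.25% higher. Large differences were those of Deptor (-1.43), Trp53inp2 (-1.32) and Park2 (-1.07). Some of the genes named here were low. Over all libraries Rilp was at 0.217 to 13.1 CPM, Mitf at 1.396 to 11.6 CPM, Park2 at 2.045 to 11.2 CPM and Deptor at 0.619 to 9.46 CPM.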

How the data were processed

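Per the labels and the study's methods, cells were sorted, captured on the 10x Chromium version 2 platform and sequenced, and the authors made UMI count matrices with bcl2fastq 2.17, STAR 2.5.1b and Cell Ranger 2.0.1 on mm10, as the submitters' processing notes give. In data set 2 the headers give Cell Ranger 3.0.1 instead, and its matrices list 31053 genes against 27998 in data set 1. The deposited values are raw counts of UMIs per gene and cell, not normalized. Cell Ranger counts reads that map to 1 place, so genes with near-identical processed copies elsewhere may be undercounted.

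Cells with over 5% mitochondrial UMIs or over 5000 genes were left out (25750 of 28334 kept; no doublet caller was run), and cells were clustered per data set (scanpy 1.11.5, leidenalg 0.10.2: 2000 variable genes, 20 components, 20 neighbours, resolution 0.8). Clusters in which at least 3 markers, and at least 50% of the list, of another cell type were 4-fold up (pseudocount 10 CPM) were left out (thymocyte, parathyroid and thyroid, leaving 25322 cells); an erythroid name also needed a marker that is no globin. This scoring rule was changed once after clusters and member levels had been seen, before any fit. It kept a haemoglobin-rich cluster of 900 cells, nearly all from E17.5 cTEC. The mTEC clusters were named at a fold of 2. A proliferation score above 0 marked cycling cells, and libraries needed 30 cells on each side, which left out adult cTEC replicate 1.

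Counts were summed per library and fitted in edgeR 4.0.16 (R 4.3.3; filterByExpr with a minimum count of 10, TMM, quasi-likelihood test), with p-values adjusted over all genes by Benjamini-Hochberg, two-sided, at 0.05. Standard errors are the estimate over the root of F. Ratios of single libraries have exact 95% counting intervals (Clopper-Pearson). The fits were tested on simulated counts with 200 changed genes: the trend fit recovered 200 at a log2 size of 1 per stage, the lineage fit 182 at a log2 size of 2 and the cycling fit 200 at a log2 size of 1, with 4.31%, 3.19% and 4.76% of calls false. The changed genes were drawn from the more abundant genes only, with dispersions from the fitted trend. The effects of all called members were smaller than the simulated sizes, and Optn, Ulk1, Atg4a and Atg4d were low genes. Recovery of effects like theirs was therefore not measured. An error in the simulation's library sizes was corrected first. Members, lists, motifs and tests were chosen with earlier results of these data known. All 36 members are named. Values in every library are given for those called with stage or lineage, the ATG8 proteins, the cargo receptors and the BNIP3 genes. At most the 4 genes with the largest change are named per other list and fit. Alternatives were DESeq2 1.42.0, RLE scaling, no filter, other sets of cells and libraries left out.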

Additional observations from a re-analysis of the deposited data

Results flagged for a closer look

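The difference between cycling and resting cells had opposite signs in the lineages for 2 members, in every library of each; this difference between lineages was not tested. For Wipi1 the mean over 4 cTEC libraries was -0.55 log2 units and that over 2 adult mTEC libraries 0.28, a gap of 0.83. For Bnip3l the means were -0.50 and 0.26, a gap of 0.76, with 1633 CPM in resting and 1067 CPM in cycling cells of E17.5 cTEC but 576 and 687 CPM in adult mTEC replicate 1. The cTEC libraries span E15.5 to adult and the mTEC libraries are adult. Within data set 2 and adult age, the difference was -0.72 in cTEC and 0.35 in mTEC for Wipi1 and -0.37 and 0.26 for Bnip3l, with 1 library of each.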

How the results depend on the processing

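For the age trend, the number of members called was 4, and 1 without the filter on low counts, 11 in DESeq2, 0 without adult cTEC replicate 1, 2 without replicate 2, 1 without the E13.5 library, 0, 2 and 1 without the E15.5, E17.5 and NB library, 2 in data set 1 only and 0 for fetal against postnatal classes (an alternative chosen after seeing the data). Over all genes 1174 were called, and 2938 in DESeq2, 780 over resting cells, 24 and 501 without adult cTEC replicate 1 and 2, 296 and 507 without the E15.5 and E17.5 library, 534 in data set 1 only and 13 for the fetal and postnatal classes. For adult cTEC against mTEC, 4 members and 4954 genes were called, against 1 and 2560 in DESeq2 and, with 1 library left out, 0 to 3 members and 1020, 2408, 2478 or 2874 genes. For cycling cells 7 members and 4360 genes were called, 14 and 5541 with RLE scaling, 13 and 4475 in DESeq2 and 8 and 5009 without the filter. With 1 adult library left out 7 to 11 members and 3862 to 4153 genes were called. Without the E13.5, E15.5, E17.5 and NB library (left out after seeing the data) these were 12, 11, 9 and 10 members and 4831, 4518, 4533 and 4817 genes. At a fold of 1.5 the steps counted 8, 6, 8 and 5 members, higher and lower together, in the order of the report, which gives the shares of all genes, and over resting cells the step from E15.5 to NB counted 1. Without the filter Gabarapl1, Optn and Ulk1 missed the threshold (slopes 0.41, 0.61 and 0.37, adjusted p = 0.0621, 0.0514 and 0.073). Optn missed it over all cells within the limits and over all deposited cells (slope 0.44 in both, adjusted p = 0.0721 and 0.0711). Without the data set term Gabarapl1 and Ulk1 did (adjusted p = 0.0582 and 0.0883), and Atg3 and Bnip3 were called instead, as they were over resting cells. Signs were followed for the ATG8 genes, Sqstm1, Nbr1, Optn, Bnip3, Bnip3l and the other called members, not for all 36, and turned in 15 cases, all of members not called in that comparison. With stage these were Atg4d in DESeq2 (0.00105), without the data set term (0.030), without adult cTEC replicate 1 (0.040, and -0.041 without replicate 2), without the E13.5 library (0.014) and for the fetal and postnatal classes (0.042), Nbr1 without the data set term (0.029) and without the E15.5 (0.00287) and NB library (0.027), Atg13 over resting cells (-0.016) and over cells with a Psmb11 or Prss16 UMI (-0.023), Bnip3l without adult cTEC replicate 1 (0.11, and -0.019 without replicate 2) and Gabarap without the E13.5 library (-0.088). By lineage they were Gabarap without adult cTEC replicate 1 (0.24), Bnip3 without adult mTEC replicate 1 (0.022) and Bnip3l without adult cTEC replicate 2 (-0.29). The cause was not tested in any of these, beyond the smaller number of libraries. Leaving out the haemoglobin-rich cluster (also added later) kept the 4 trend and the 4 lineage calls. The cycling comparison over all deposited cells was not run, since cells outside the limits had no score. The labels give no replicate numbers; the lineage fit is paired by data set, with 1 cTEC and 1 mTEC library in each, and without that term the same 4 members were called. The members with the fewest UMIs in a library were Tfeb (6), Atg9a (15), Atg2b (16) and Atg4a (17).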
